A study of Homo sapiens with 2 samples.

Results

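Transcripts of glucose uptake, glycolysis and the entry of pyruvate into mitochondria were measured in PC-3 cells exposed to Riccardin D (RD) and in control PC-3 cells. The list holds 32 genes, taken in the order of the pathway from the glucose carriers to the subunits of pyruvate dehydrogenase. A gene was read through every probe set of the array that the platform annotation pairs with that gene alone. Of the 32 genes, 30 had such a probe set, 72 probe sets in all, out of 19775 genes in the whole series. Signals of SLC16A1 and SLC16A3 were not analysed here. PC-3 is a human prostate cancer line that grows without androgen. RD belongs to the macrocyclic bisbibenzyls, compounds made by liverworts. The treated culture received 10 µmol/L RD for 24 h, a dose that the study's text gives and the sample labels do not. The control is named as given DMSO vehicle by the treatment protocol and as not treated by its source name. With 1 Affymetrix HG-U133 Plus 2.0 array for each condition there is no replicate and no p-value, and any other difference between the cultures cannot be told apart from RD.

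Glycolysis splits glucose into pyruvate in the cytosol. Its early steps spend ATP to trap and phosphorylate the sugar, and its later steps return ATP and NADH. Pyruvate is then either reduced to lactate and exported, or carried into mitochondria and turned into acetyl-CoA by the pyruvate dehydrogenase complex, which the pyruvate dehydrogenase kinases switch off. Cancer cells commonly run glycolysis at a high rate also when oxygen is present, and the transcription factors HIF1A and MYC are known to induce many of its genes.

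MAS5 signals were deposited, that is, background-corrected intensities on a linear scale. The floor used here is 66.9, the median signal over both arrays. A gene is called higher or lower when its brightest probe set differed at least 2-fold between the arrays and its higher signal reached the floor. Where the lower signal was under the floor, the fold is given as a bound against the floor (at least N-fold), and the call stands on the deposited signals even where that bound is under 2-fold. The log2 difference is always RD minus control. In place of a replicate error, the scatter between probe sets of the same gene was taken, which had an SD of 0.76 on the log2 scale at the floor and 0.34 where the higher signal reached 377.4, the 75th percentile of all signals. This scatter does not hold the difference between cultures. Fewer cells of a kind and less RNA per cell cannot be told apart in such bulk samples.

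The labelled cell type was checked against marker genes. Of 5 epithelial markers, KRT18 had a signal of 10224.2 in the control and 15416.6 under RD, and KRT8 had 113.8 and 159.3. KRT19, EPCAM and CDH1 were under the floor on both arrays, with no signal above 29.3, so these defining epithelial transcripts were not seen on either array. The androgen axis genes KLK2 and TMPRSS2 were under the floor on both arrays by their brightest probe sets. KLK3 had 131.4 and 230.6 by its brightest probe set, while its others, at 30.9 and 13.4 and at 14.9 and 8.7, were under the floor. The leukocyte genes PTPRC and CD14 were under the floor on both arrays and CD3D had 84.6 and 65.9. Of 5 fibroblast and endothelial genes, 3 were under the floor. By their brightest probe sets COL1A1 had 370.6 and 325.8 and PECAM1 had 121.6 and 72.7. The other PECAM1 probe sets were under the floor on both arrays. The part of these markers in the results was not tested.

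Most of the measured genes were lower under RD. Of the 30 genes, 28 reached the floor, out of 12818 genes in the series that did. Lower by any amount were 24 of the 28, beside 50.1% of all genes, and SLC2A1, HK2, GAPDH and PDK3 were the 4 with a higher signal. The genes called lower were GPI, PFKM, PFKFB4, TPI1, PGAM1, ENO2 and PKM, which makes 7 of 28, beside 13.3% of all genes. With only probe sets that carry no suffix for sequence shared with other transcripts, 3 of 18 were called lower (PFKFB4, ENO2 and PKM). GPI, PFKM and PGAM1 have no such probe set, and that of TPI1 had a log2 difference of -0.76. The share of all genes called lower with such probe sets alone was not computed, so 3 of 18 has none beside it. The only gene called higher was the hexokinase HK2, 1 of 28, beside 12.1% of all genes. Over the 28 genes the log2 differences had a median of -0.62, against -0.0022 over all genes. Of these 28 genes, 19 were lower by more than the scatter SD that applies to their brightness, beside 28.7% of all genes, and 1 was higher by more than it, beside 27.8%.

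**Figure D1:**
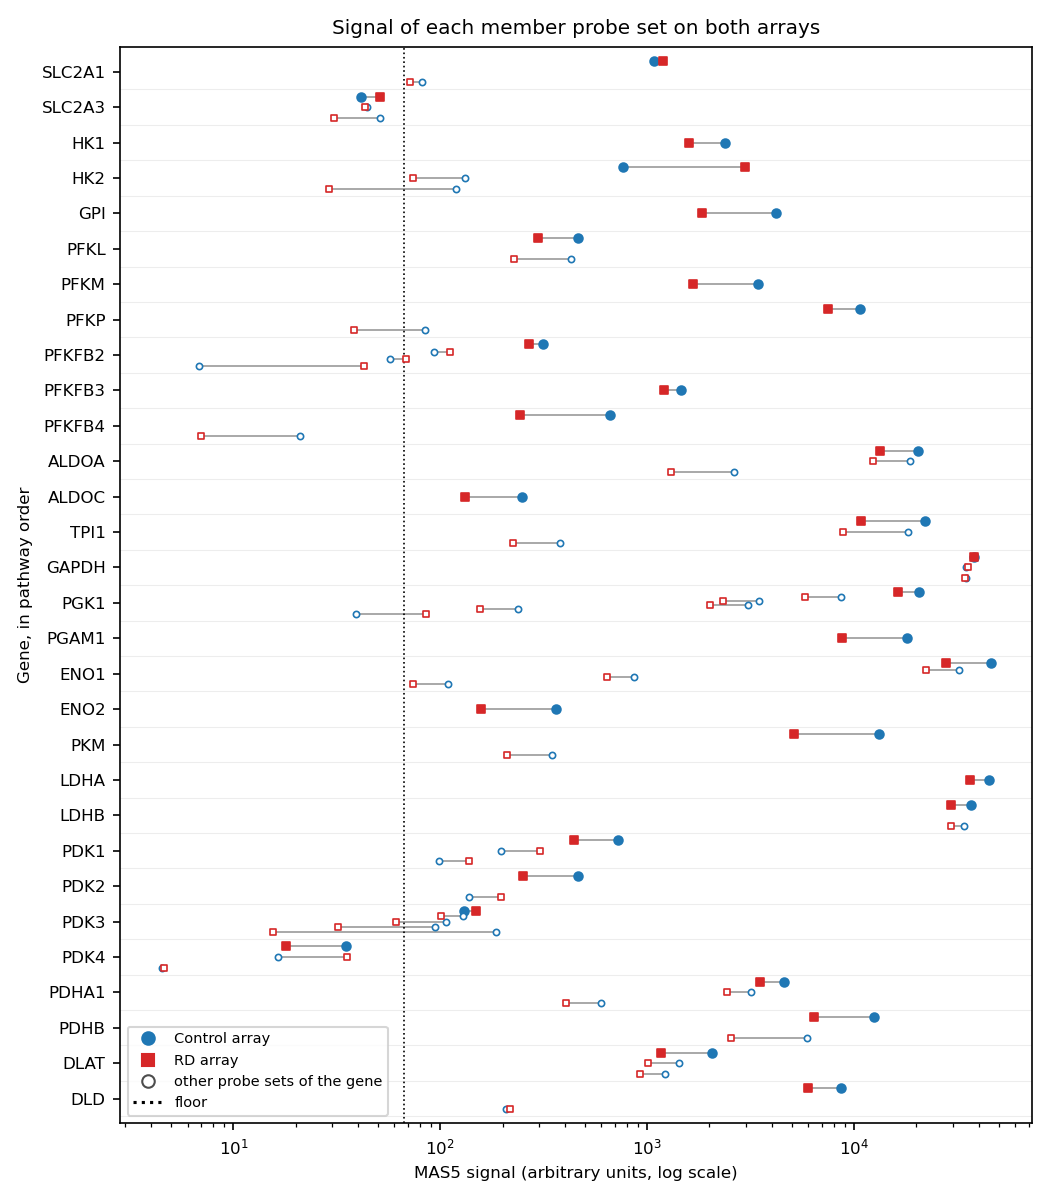
MAS5 signal (horizontal, log scale, arbitrary units) of every member probe set on the control array (blue circles) and the RD array (red squares), joined by a line, for 30 genes in pathway order. A filled symbol marks the brightest probe set of each gene and open symbols the rest, with the floor of 66.9 as a dotted line. Red squares lie to the left of blue circles for 38 of the 42 probe sets that reach 377.4. The other 4 belong to HK2 (764.1 and 2962.2), SLC2A1 (1077.6 and 1193.3) and GAPDH, for which 2 probe sets nearly coincide.

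The differences were modest in size and spread over many steps. At a threshold of 1.5-fold, 15 of 28 genes were lower and 1 higher, beside 24.7% and 22.8% of all genes. At 3-fold 0 were lower and 1 was higher, beside 6.05% and 5.21%. Among brighter genes, which reached the 75th percentile, 6 of 24 members were called lower and 1 higher, beside 10.9% and 9.91% of 8094 genes. Lower by any amount were 21 of these 24, beside 49.8%. By probe sets, 42 of the members reached that percentile, and 38 of the 42 had less signal under RD. The 22 probe sets between the floor and that percentile were less uniform, with 14 lower and 8 higher. Of all 64 member probe sets at the floor 52 were lower, beside 12209 of 24934 single-gene probe sets of the series. Of 19 genes with at least 2 probe sets at the floor, 10 had a lower signal in all of them and 9 had probe sets in both directions. The same counts over all genes were not computed.

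Glucose enters through carriers of the SLC2A family. The signal of SLC2A1 (GLUT1), the widely expressed carrier of growing cells, was 1077.6 in the control and 1193.3 under RD, a log2 difference of 0.15 that lies within the scatter. Its second, dim probe set gave 81.8 and 71.7. SLC2A3 (GLUT3), a carrier of high affinity, was under the floor in all 3 probe sets on both arrays, with signals from 30.8 to 51.4. Neither probe set of SLC2A1 differed by more than the scatter.

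Hexokinase traps glucose in the cell as glucose 6-phosphate, and its isoenzymes differed in opposite directions. HK1, the isoenzyme found in most tissues, had a signal of 2369.8 in the control and 1586.7 under RD (1.49-fold lower). HK2, the inducible isoenzyme of muscle and many tumours, had 764.1 in the control and 2962.2 under RD by its brightest probe set (3.88-fold higher). Signals of different genes cannot be set against each other, so this compares their ratios and not their levels.
The higher signal of HK2 rests on that 1 probe set. A second gave 131.1 and 74, which is 1.77-fold lower, and another gave 118.5 and 29.1, which is at least 1.77-fold lower because the RD signal was under the floor. Both are dim, and the median over the 3 probe sets was -0.83 on the log2 scale, opposite in sign to the brightest. Whether the probe sets read the same transcripts was not tested.

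Phosphoglucose isomerase (GPI), which turns glucose 6-phosphate into fructose 6-phosphate, was called lower, with 4175.4 in the control and 1848.6 under RD (2.26-fold). Phosphofructokinase makes the committed step, and all 3 of its subunit genes had lower signals. The muscle-type subunit PFKM had 3443.3 and 1660.3 (2.07-fold lower). The liver-type subunit PFKL had 460.9 and 297.5 (1.55-fold lower), and 429.8 and 226.4 by its other probe set. The platelet-type subunit PFKP had 10651.3 and 7482 (1.42-fold lower). A dim second probe set of PFKP gave 84.6 and 38.1, at least 1.26-fold lower. By the brightest probe sets PFKM alone passed 2-fold, with log2 differences of -1.05, -0.63 and -0.51 in that order.

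The PFKFB enzymes make and remove fructose 2,6-bisphosphate, the strongest known activator of phosphofructokinase. PFKFB4 had a signal of 664 in the control and 243.7 under RD, which at 2.72-fold lower was the largest decrease among the members by their brightest probe sets. PFKFB3, the isoenzyme in which the kinase activity prevails, had 1462.3 and 1210.4 (1.21-fold lower), and PFKFB2 had 314.2 and 269.3 (1.17-fold lower), both within the scatter. The other probe sets of PFKFB2 at the floor leaned the opposite way, at 93 and 111.7 and at 57.1 and 68.6. The dim second probe set of PFKFB4 was under the floor on both arrays.

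**Figure D2:**
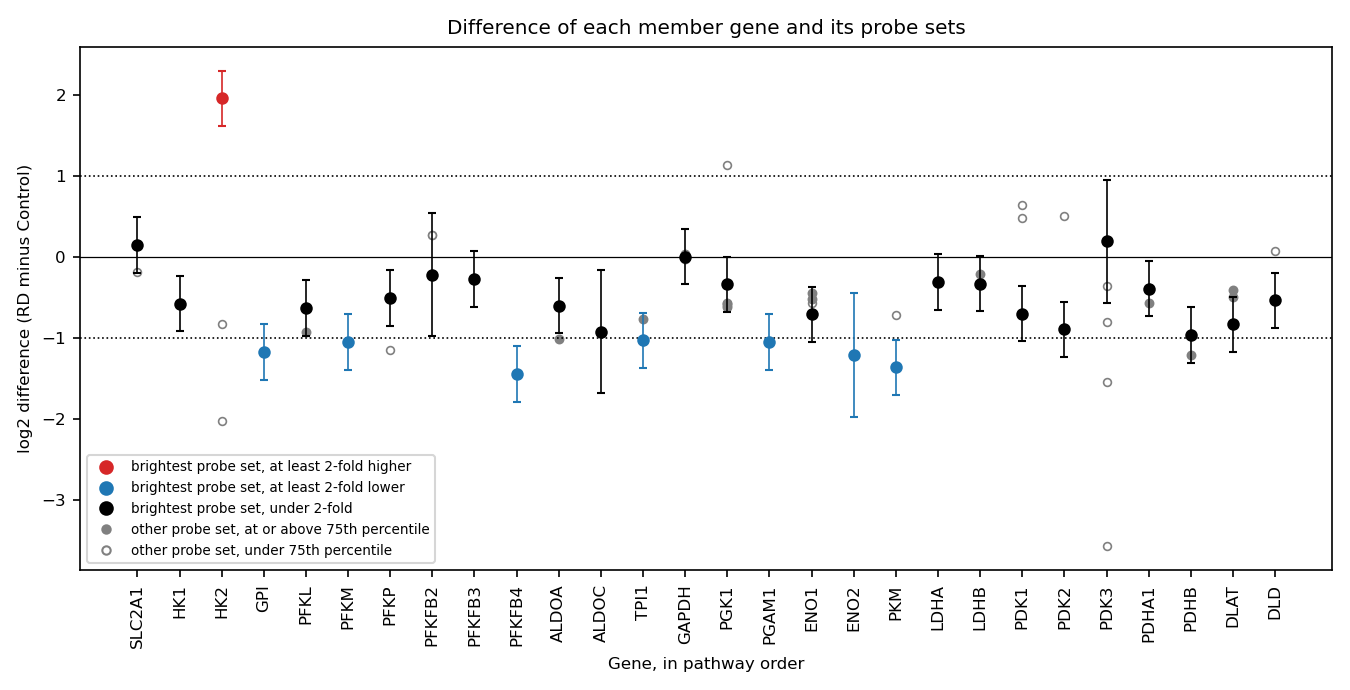
Difference in log2 signal (RD minus control, vertical) of the 28 genes at or above the floor, in pathway order. Large points are the brightest probe sets with bars of 1 SD of the scatter between probe sets of a gene (0.34, or 0.76 for dimmer genes), small points are other probe sets, and dotted lines mark 2-fold. Blue points from GPI at -1.18 to PKM at -1.36 lie below the lower line, HK2 lies above the upper line at 1.95, and GAPDH lies at 0.

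Aldolase splits the 6-carbon sugar into triose phosphates. ALDOA, the main muscle and tumour form, had 20332.8 in the control and 13397.9 under RD (1.52-fold lower), and its other probe sets were 1.52-fold and 2.02-fold lower. ALDOC, the brain form, had 249.3 and 131.4 (1.90-fold lower). Triosephosphate isomerase (TPI1), which interconverts the triose phosphates, was 2.04-fold lower, from 21987.8 to 10768, and its other bright probe set was 2.05-fold lower. The dimmest TPI1 probe set gave 380.7 and 224.3. Each of these 7 probe sets of aldolase and TPI1 was lower in RD-treated cells.

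GAPDH, the dehydrogenase that yields the NADH of glycolysis, was nearly equal on the arrays. Its probe sets gave 38095.9 in the control and 38140.6 under RD, 34781.6 and 35488.5, and 34967.4 and 34322.2. The log2 differences of 0.00, 0.03 and -0.03 are small beside the scatter of 0.34. GAPDH is also the transcript to which the study scaled its qPCR.
GAPDH is among the brightest signals of the arrays. Of 169 probe sets of the series with a mean signal of 32768 or more, 1 differed 2-fold and the SD of the log2 differences was 0.16, against 0.80 for the 1947 probe sets between 4096 and 16384. Of the members, GAPDH, ENO1, LDHA and LDHB lie in that brightest range. Whether signals are compressed there was not tested.

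The steps from 1,3-bisphosphoglycerate to pyruvate return ATP. Phosphoglycerate kinase (PGK1) had 20576.8 and 16266.5 by its brightest probe set (1.26-fold lower). Its next 4 probe sets were 1.49-fold to 1.53-fold lower, and its dimmest, at 39.1 and 85.5, was at least 1.28-fold higher. Phosphoglycerate mutase (PGAM1) was called lower, with 18084.9 in the control and 8729.1 under RD (2.07-fold). Among its neighbours, PGAM1 and TPI1 therefore showed nearly the same ratio of RD to control signal, 0.483 and 0.490.
Enolase makes phosphoenolpyruvate. ENO1, the form found in most cells, had 45720.8 and 27931.2 (1.64-fold lower), and all 4 of its probe sets were lower, by 1.36-fold or more. ENO2, the neuronal form, had 364.3 and 157.4 (2.31-fold lower). Pyruvate kinase (PKM), which makes pyruvate and the last ATP, had 13254.5 in the control and 5153.2 under RD (2.57-fold lower). Its other probe set gave 346 and 210 (1.65-fold lower), and the annotation assigns neither to a splice form. The 9 genes from aldolase to pyruvate kinase had a median log2 difference of -0.92. Of these 9, 4 were called lower and none higher, beside 13.3% and 12.1% of all genes.

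**Figure D3:**
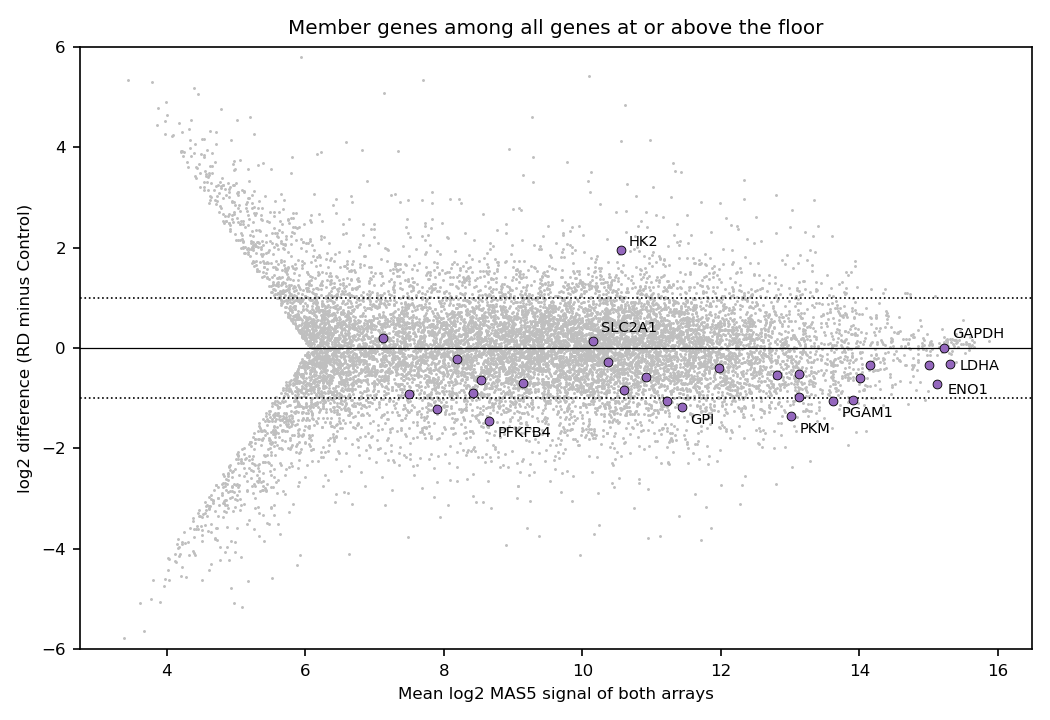
Difference in log2 signal (RD minus control, vertical) against the mean log2 signal of both arrays (horizontal) for 12815 genes at or above the floor (grey) and the 28 members among them (purple). Another 3 genes lie beyond the vertical range, and dotted lines mark 2-fold. Most members lie below 0 across the range of brightness, with HK2 at 1.95, and the grey cloud narrows at the bright end where GAPDH, LDHA and ENO1 lie.

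Lactate dehydrogenase turns pyruvate into lactate and restores NAD+. LDHA, the form that favours lactate, had 45062.6 and 36289.6 (1.24-fold lower). LDHB, the heart form, had 36925.5 and 29319.6 (1.26-fold lower), and 33962.8 and 29416 by its other probe set. The log2 differences of -0.31 and -0.33 were smaller than the scatter of 0.34, but larger than the SD of 0.16 among all probe sets as bright as these.

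Pyruvate entry is governed by the pyruvate dehydrogenase kinases, which inhibit the complex. None of the 4 kinase genes was called, and their probe sets did not agree in direction. PDK1, a known hypoxia target, had 721.8 and 443.3 by its brightest probe set (1.63-fold lower), but 195.6 and 304.3 and 98.6 and 137.4 by the others. PDK2 had 465.3 and 250.3 (1.86-fold lower), but 137.7 and 195.8 by its other probe set. PDK3 had 129.9 and 148.5 by its brightest, and its other 4 probe sets were lower, the farthest at 185.1 and 15.6, at least 2.77-fold lower. PDK4, a kinase induced by fasting, was under the floor in all 3 probe sets on both arrays. No direction can be given for these kinases across their probe sets.
The 4 listed subunits of the complex itself were lower by all but 1 of their probe sets. PDHX, a subunit of the neighbouring list that binds E3, had 2861.5 and 2933.1. PDHB, the beta subunit of the E1 component, had 12527.3 in the control and 6413.4 under RD (1.95-fold lower, just short of the threshold), and its other probe set was 2.32-fold lower. DLAT, the acetyltransferase E2, had 2069.1 and 1162.3 (1.78-fold lower), with the others 1.41-fold and 1.32-fold lower. PDHA1, the alpha subunit of E1, had 4605.5 and 3504.6 (1.31-fold lower), with the others 1.31-fold and 1.48-fold lower. DLD, the dehydrogenase E3 that other complexes share, had 8672.2 and 5969.4 (1.45-fold lower), and 207.2 and 218.3 by a dim probe set. The 4 genes had a median log2 difference of -0.69 with none called. Of the genes just inside and just outside the 2-fold threshold, TPI1 had a log2 difference of -1.03 and PDHB of -0.97.

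Promoter windows of RefSeq on GRCh38.p14, from 250 bases before to 50 after a gene's start, were read for the letters ACGTG and GCGTG, the core that HIF factors are known to bind. Both strands were read, and CACGTG, the E-box core bound by MYC and the glucose-responsive MLX factors, contains ACGTG on both. Of the 32 genes, 29 matched the table, with 58 windows, some of which overlap. SLC2A3, PFKFB2 and SLC16A1 had no window, and SLC16A3 is among the 29 although its signal was not read. ACGTG or GCGTG was found in 37 of these 58 windows (63.8%) and in 48.4% of all 35116 windows. CACGTG was found in 8 (13.8%) and in 7.26% of all. TGATGNAA, part of the element that ATF4 binds with CEBP factors, was found in 2 (3.45%), both overlapping windows of HK1, and in 3.62% of all. The windows below belong to the gene called higher, to the lower genes with the largest fold, and to GAPDH, whose signals were nearly equal, with ACGTG and GCGTG on either strand in capitals.
HK2, first window (chr2:74833877-74834176, plus strand): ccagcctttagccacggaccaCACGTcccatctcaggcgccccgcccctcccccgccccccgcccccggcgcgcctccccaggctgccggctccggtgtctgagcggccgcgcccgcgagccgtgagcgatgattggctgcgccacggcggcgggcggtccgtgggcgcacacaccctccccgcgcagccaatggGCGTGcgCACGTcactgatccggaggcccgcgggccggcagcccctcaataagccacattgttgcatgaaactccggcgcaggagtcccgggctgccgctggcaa
HK2, second window (chr2:74834920-74835219, plus strand): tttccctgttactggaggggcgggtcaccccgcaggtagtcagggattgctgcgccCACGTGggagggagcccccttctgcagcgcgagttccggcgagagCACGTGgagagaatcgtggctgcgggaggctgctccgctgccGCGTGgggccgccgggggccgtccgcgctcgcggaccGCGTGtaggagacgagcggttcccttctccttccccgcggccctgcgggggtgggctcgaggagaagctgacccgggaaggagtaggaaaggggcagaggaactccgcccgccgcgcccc
PFKFB4 (chr3:48556754-48557053, minus strand): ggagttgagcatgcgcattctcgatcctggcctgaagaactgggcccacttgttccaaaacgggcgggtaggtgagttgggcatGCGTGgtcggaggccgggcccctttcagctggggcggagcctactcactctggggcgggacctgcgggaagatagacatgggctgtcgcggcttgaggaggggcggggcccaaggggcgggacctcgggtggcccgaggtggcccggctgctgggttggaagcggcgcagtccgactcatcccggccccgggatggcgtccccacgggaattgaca
PKM (chr15:72231141-72231440, minus strand): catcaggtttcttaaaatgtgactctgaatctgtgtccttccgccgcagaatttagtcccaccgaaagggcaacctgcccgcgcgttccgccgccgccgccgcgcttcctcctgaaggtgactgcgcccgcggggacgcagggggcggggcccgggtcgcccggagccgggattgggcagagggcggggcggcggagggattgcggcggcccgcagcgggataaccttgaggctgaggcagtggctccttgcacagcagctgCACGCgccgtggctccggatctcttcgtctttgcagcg
GAPDH (chr12:6535014-6535313, plus strand): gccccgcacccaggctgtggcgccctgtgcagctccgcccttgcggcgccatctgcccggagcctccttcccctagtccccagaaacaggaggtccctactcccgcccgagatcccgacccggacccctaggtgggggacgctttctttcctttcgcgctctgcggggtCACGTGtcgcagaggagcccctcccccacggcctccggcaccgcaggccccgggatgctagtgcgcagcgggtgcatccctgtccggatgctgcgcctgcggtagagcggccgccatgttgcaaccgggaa
The windows printed here all hold the core, with 3 and 6 matches in HK2, 1 in PFKFB4, 1 in PKM and 2 in GAPDH, where each CACGTG counts as 2. CACGTG lies in the second window of HK2 and in GAPDH and not in the windows of PFKFB4 and PKM. Of the genes called lower, PGAM1 holds neither core in its window, and TPI1 and PFKM have windows with and without one. A match is a description of these letters and not of binding.

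Neighbouring routes of glucose and pyruvate were read from textbook lists. The tricarboxylic acid cycle, which burns the acetyl-CoA that pyruvate dehydrogenase makes, had mostly lower signals too. Of its 14 genes at the floor, 12 were lower under RD by any amount, beside 50.1% of all genes. None was called, and the median log2 difference was -0.58. At its ends were SDHC, a subunit of succinate dehydrogenase, with 4089.9 and 2061.3 (1.98-fold lower), and OGDH, of the oxoglutarate dehydrogenase complex, with 410.1 and 542.0 (1.32-fold higher). Of the other SDHC probe sets, 4 were 2.05-fold to 2.65-fold lower, another gave 315.8 and 351.1 (1.11-fold higher), and the dimmest was under the floor. The other OGDH probe sets were 1.18-fold and 1.53-fold lower.
The shuttles that carry the NADH of glycolysis into mitochondria had a median of -1.17 over 8 genes. Of these, 4 were called lower and 1 higher, beside 13.3% and 12.1% of all genes. The aspartate-glutamate carriers SLC25A12 (1555.7 and 555.8) and SLC25A13 (2348.5 and 725.7) were 2.80-fold and 3.24-fold lower. The glycerol phosphate shuttle gene GPD2 (1811.4 and 658.9) and the GPD1-like gene GPD1L (1001.8 and 347.1) were 2.75-fold and 2.89-fold lower. GPD1, the cytosolic enzyme of that shuttle, was under the floor in all its probe sets, at 3.8 and 28.6 by the brightest. The other GPD2 probe sets gave 342.5 and 180.5, and, near the floor, 59.7 and 77.7. The transaminase GOT1 was 2.85-fold higher, from 2855.9 to 8131.7.

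The side branches of the upper pathway had medians near or above 0, glycogen metabolism excepted. None of 6 pentose phosphate genes at the floor was called, and their median was -0.04. RPIA, the ribose phosphate isomerase, stood at the low end (1221.3 and 716.4), and PGLS, the lactonase, at the high end (1251.2 and 1428.5). The hexosamine pathway, which draws on fructose 6-phosphate to make the sugar donor of glycosylation, had a median of 0.91 over 5 genes. Its list also holds OGT and OGA, which attach that sugar to proteins and remove it and do not make the donor. The median is the value of OGT (4065.6 and 7649.4). In this pathway 2 genes were called higher, beside 12.1% of all genes. Its first enzyme, GFPT1, had 1935.3 and 10574.7 (5.46-fold higher) and was 5.51-fold to 6.97-fold higher by its other 3 probe sets. GNPNAT1, an acetyltransferase of the same path, had 2517.6 and 5077.7 (2.02-fold higher).
Among 10 genes of glycogen metabolism, 1 was called lower, beside 13.3% of all genes. This was PGM2 (2.06-fold), with its other probe sets 1.39-fold and 1.49-fold lower. PGM1 had 3631 and 4242.2, and the median of the 10 genes was -0.45. In gluconeogenesis, PCK2, the mitochondrial form of phosphoenolpyruvate carboxykinase, was 2.84-fold higher, from 1143.7 to 3247.7. FBP1, the bisphosphatase that opposes phosphofructokinase, had 32.6 and 98.9, which is at least 1.48-fold higher. The median of the 4 genes of that list at the floor was 0.91. It takes the deposited signals of FBP1 and not the bound against the floor.

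**Figure D4:**
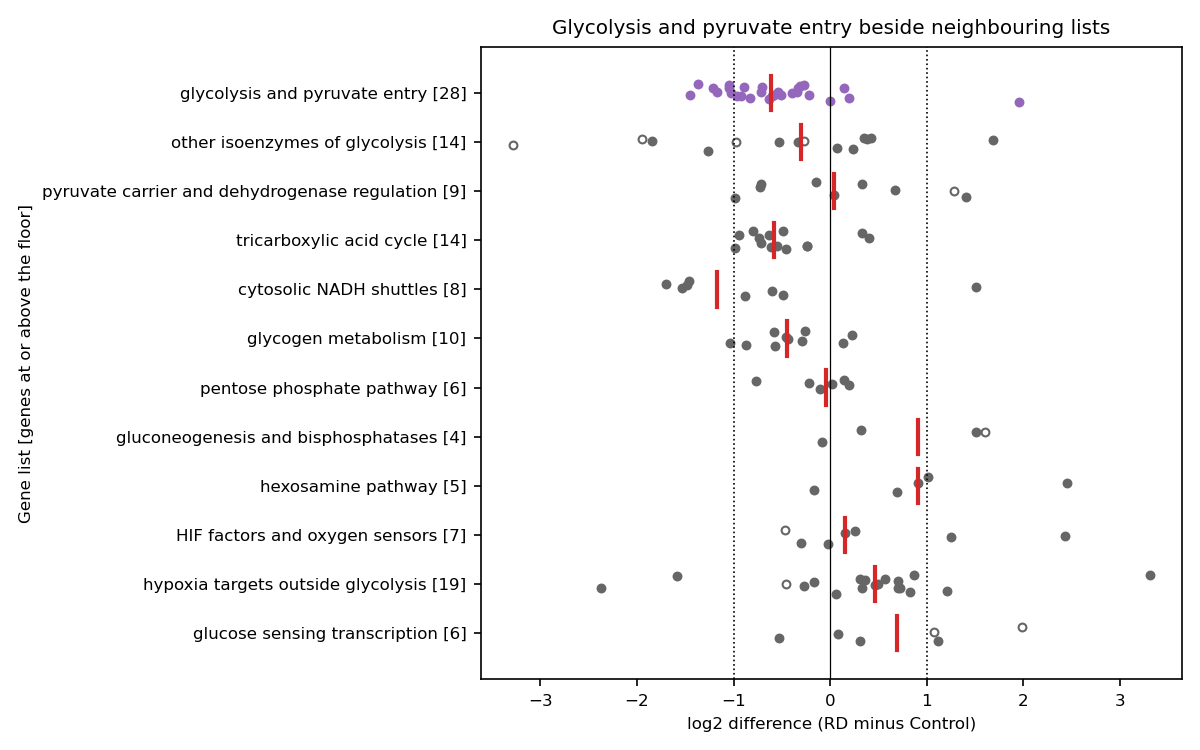
Difference in log2 signal (RD minus control, horizontal) of the genes at or above the floor in glycolysis and pyruvate entry (purple, 28 genes) and in neighbouring lists (grey), with the number of genes in brackets. Medians are drawn as red bars and 2-fold as dotted lines. An open circle means that 1 of the signals was under the floor, so that its position is no bound. The medians of glycolysis (-0.62), the tricarboxylic acid cycle (-0.58) and the NADH shuttles (-1.17) lie left of 0, and that of the hexosamine pathway (0.91) lies right of it.

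Of 14 other isoenzymes and carriers of glycolysis at the floor, 4 were called lower and 1 higher, beside 13.3% and 12.1% of all genes. The median of the 14 was -0.30. EMB (embigin), a partner protein of lactate carriers, had 4948.1 and 1381.9 (3.58-fold lower). BSG, another such partner (3710.8 and 2949.6), and the lactate carrier SLC16A7 (2141.9 and 2530.4) were not called. The glucose carrier SLC2A6 had 827.3 and 344.6 (2.40-fold lower). SLC2A10, another carrier, had 154.8 and 497 (3.21-fold higher). SLC2A9 and SLC2A12 were lower by at least 1.88-fold and 1.97-fold, each from a dim control signal. Of 9 genes of the mitochondrial pyruvate carrier and of pyruvate dehydrogenase regulation, LIAS, the lipoic acid synthase, was 2.64-fold higher, from 340.5 to 900.4, and the testis form PDHA2 was at least 1.18-fold higher. By any amount 4 of the 9 genes were lower and 5 higher, with a median of 0.04. Of the carrier itself, MPC1 was 1.26-fold higher and MPC2 1.97-fold lower by their brightest probe sets.

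Of the known inducers of glycolytic genes, MYC was called higher and HIF1A was not called. HIF1A had a signal of 12841.6 in the control and 14326.7 under RD (1.12-fold higher, within the scatter). MYC had 6813.6 and 14720.6 (2.16-fold higher). Of 7 HIF factors and oxygen sensors at the floor, EPAS1 (HIF2A) had 311.9 and 1676.4 (5.37-fold higher), and VHL was 2.38-fold higher by its brightest probe set and at least 1.18-fold lower by its other. Transcript signals do not report the protein levels or activity of these factors.
Hypoxia targets outside glycolysis leaned higher, with 14 of 19 genes higher by any amount and a median of 0.47, where 50.1% of all genes were lower. Called were 2 in each direction (10.5%), under the shares of all genes, 12.1% higher and 13.3% lower. VEGFA, the endothelial growth factor, had 3010.6 and 6960.8 (2.31-fold higher), and LOX, the lysyl oxidase, had 199.3 and 1977.8 (9.92-fold higher). ANGPTL4, an inhibitor of lipoprotein lipase, was 5.19-fold lower, from 1022.5 to 197.1. FAM162A, a mitochondrial protein, had 7301.9 and 2437.8, a log2 difference of -1.58. Of the glucose-sensing genes, TXNIP, which limits glucose uptake, was dim and its probe sets did not agree, at 25.7 and 101.7 by its brightest probe set and 80.4 and 17.8 by another, and ARRDC4 had 38.4 and 80.8, at least 1.21-fold higher. The median of the 6 genes of that list at the floor was 0.69. It takes the deposited signals of TXNIP and ARRDC4 and not their bounds against the floor.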

How the data were processed

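Total RNA of control and RD-treated PC-3 cells was hybridised to 1 array per condition. The authors deposited MAS5 intensities on a linear scale, as the submitters' processing notes name them, with no version or scaling target given in the sources used here. Means without the highest and lowest 2% of signals were 495.8 and 495.9, so no further scaling was applied. Of 54613 probe sets, 41091 had 1 gene in the platform annotation, 1801 had several and were left out, and 11721 have no name here. The RefSeq gene table changed no symbol. Where a gene had several probe sets, that with the highest mean log2 signal was taken. The number of arrays limits the precision.

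Log2 differences were computed with no offset. A fold against a signal under the floor is given as a bound against the floor. No test was made. All members are named, together with genes of the neighbouring lists that were called or, in lists with at most 1 call, lay at the ends, and TXNIP, HIF1A, MYC and VEGFA. Further genes, probe sets and ends were named after their values were seen. Members and lists were chosen with earlier results of these data known. Alternatives were division by GAPDH, quantile normalization, centring on the median, the median over probe sets, an offset of 17.1 (the 25th percentile), only probe sets without shared-sequence suffixes, no floor, a floor of 377.4, raising signals to the floor, and thresholds of 1.5-fold and 3-fold. Leaving out the 5 brightest members was added after seeing the data. Scripts were tested on simulated data with known shifts. Computations used pandas 2.3.3 and numpy 2.4.6 in Python 3.11.15, with plots by matplotlib 3.10.9.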

Additional observations from a re-analysis of the deposited data

How the results depend on the processing

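The median log2 difference of the members stayed between -0.70 and -0.57 under every alternative to which it applies, against -0.62 in the report. The number of genes called lower was 7 of 28. It was 8 after centring or with the median of a gene's probe sets, and 6 of 24 with the floor at 377.4. It was 3 of 18 when only probe sets without a shared-sequence suffix were used, which leaves 10 genes out. The share of all genes was not computed after centring, with the median, or without suffixed probe sets. It was 15 of 28 at a threshold of 1.5-fold and 0 at 3-fold. Without the 5 brightest members (LDHA, GAPDH, ENO1, LDHB and PGK1) it was 7 of 23. That count could not change, because none of these 5 was called, and the share of all genes was not computed for it. The number called higher was 1, and 0 when the median of a gene's probe sets was taken, where HK2 had a log2 difference of -0.83. Of 46 values of single genes under the alternatives that change the probe sets read for a gene, 5 moved by more than the scatter. These were HK2, PDK1 (0.48), PDK2 (-0.19) and PDK3 (-0.81) with the median and DLAT (-0.40) without suffixed probe sets. Within the scatter, SLC2A1 turned from 0.15 to -0.02 with the median and to -0.19 without suffixed probe sets. PFKFB2 turned from -0.22 to 0.26 with the median, also within the scatter. The changes of floor leave the value of a single gene as it is by construction, and division by GAPDH shifts all genes by the 0.0017 by which GAPDH differed. No paired analysis was possible because each condition has 1 array, and for the same reason no array could be left out. Signals near and under the floor of 66.9 limit what can be said of SLC2A3, PDK3 and PDK4.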
